A study of Mus musculus with 2 samples.

Results

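The genes of cholesterol synthesis and of its control by SREBP were followed in the adrenal gland of aged mice. The set holds 28 genes, taken by symbol from the transcript tables of both libraries, and all 28 were read in both, among 17707 annotated genes read in either. It comprises 20 genes of the enzymes from acetyl-CoA to cholesterol, 7 genes of the SREBP control system and Stard4, a sterol transport gene. The tissue was adrenal gland of female B6CASTF1/J mice, an F1 hybrid strain, aged 18 to 20 months, and no treatment, allele or second condition is given. Long-read RNA sequencing, in which a read follows 1 cDNA molecule through its exons, was run on 1 group of 2 libraries made from 1 µg of total RNA each. The biosample texts name different females but both carry the same donor entry, so separate animals are not settled. The exact binomial and Fisher p-values below set the difference between these 2 libraries against counting error only. Such a difference may be technical. Only edgeR's exact test sets a gene against the spread of all genes between these libraries. Replicate 1 held 1412947 reads on annotated genes and replicate 2 held 933963. CPM scales these gene reads to 1000000 per library, and since a read stands for a molecule, CPM was not divided by transcript length. The length of the most-read transcript is given with each gene except Srebf2 instead. Intervals are exact 95% Clopper-Pearson intervals and cover counting error only, and 3 reads, the limit a count of 0 allows, equal 2.12 CPM in replicate 1 and 3.21 CPM in replicate 2. The defining cortex genes Star, Cyp11a1, Cyp21a1, Cyp11b1, Hsd3b1 and Nr5a1 summed to 73150 and 72865 CPM, and the 5 medulla markers to 11991 and 9406 CPM, whereas the liver markers had 10 and 5 reads.

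Cholesterol is built in the endoplasmic reticulum and cytosol from acetyl-CoA by way of mevalonate, isoprenoid diphosphates, squalene and lanosterol, and the last steps trim lanosterol to cholesterol. When membrane sterol is low, Scap escorts the SREBP precursors from the endoplasmic reticulum to the Golgi, where the proteases encoded by Mbtps1 and Mbtps2 cleave them and free a transcription factor that acts on the genes of the pathway. Insig proteins hold Scap back when sterol is plentiful, and Insig1 is itself an SREBP target. Steroid-producing cells of the adrenal cortex use cholesterol as the starting material of their hormones and obtain it both from lipoproteins and from this pathway.

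Sequences before the transcription starts of 24 of the 28 genes were found in RefSeq (GRCm38.p6), in 32 windows that run from 250 bases before to 50 after a start. Fdps, Fdft1, Sqle and Stard4 were not matched. Windows were searched on both strands for 4 motifs. TCACNCCAC, letters of a sterol regulatory element, was present in 1 of 32 windows, that of Hmgcs1, and in 1.24% of 32851 windows of all genes. CCAAT, the core of the NF-Y site, was present in 21 of 32 (65.6%) against 37.4% of all. GGGCGG, the core of the Sp1 site, was present in 25 of 32 (78.1%) against 35.7%. CACGTG, an E-box, was present in 6 of 32 (18.8%) against 7.15%, in windows of Dhcr7, Hsd17b7, Insig1, Sc5d and Scap. Both Scap windows overlap and hold the same match, so it is counted more than once. The Dhcr7 match is in the window of the start at 143823399, within a first exon that no read was seen to splice from (below). The window of the Dhcr7 start at 143830214 held no CACGTG. Several windows belong to the same gene, so they are not independent, and a match is a string of letters and not a measured binding site. The search took exact letters (N as any base) in these windows only, so a missing match does not show that a site is absent. The stretches of the 2 most abundant genes are shown because they lead the set and differed between the libraries in opposite directions. The Hmgcs1 stretch is chr13:119690144-119690292 on the plus strand, with TCACCCCAC at -137 from the RefSeq start and the CCAAT core (ATTGG on this strand) at -176 in capitals. The Insig1 stretch is chr5:28071181-28071331 on the plus strand, with the CCAAT core at -216 and CACGTG at -101 in capitals.
Hmgcs1: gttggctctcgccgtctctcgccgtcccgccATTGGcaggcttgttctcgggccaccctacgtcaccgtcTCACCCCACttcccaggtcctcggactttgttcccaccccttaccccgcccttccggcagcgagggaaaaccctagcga
Insig1: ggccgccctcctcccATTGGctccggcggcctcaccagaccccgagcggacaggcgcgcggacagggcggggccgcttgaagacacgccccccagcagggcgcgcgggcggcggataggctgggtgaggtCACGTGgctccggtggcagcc

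Together the 28 genes took 6774 of the gene reads in replicate 1, or 0.479% (interval 0.468 to 0.491%), and 4169 in replicate 2, or 0.446% (interval 0.433 to 0.460%), a mean of 0.463 ± 0.0234% (SD, n = 2). The 20 enzyme genes held 0.311% and 0.317% of gene reads, and the 7 control genes 0.168% and 0.128%. Hmgcs1, the cytosolic HMG-CoA synthase, led at 958 ± 226 CPM (mean ± SD, n = 2) and ranked 101 among all genes, followed by Insig1 at 820 ± 326 CPM with rank 127. Below a gap came Dhcr7 at 365 ± 37.1 CPM, Msmo1 at 341 ± 63.0 CPM, Fdps at 289 ± 25.6 CPM and Srebf1 at 265 ± 6.12 CPM. At the other end stood Nsdhl at 17.9 ± 8.69 CPM, Stard4 at 13.7 ± 6.36 CPM and Mbtps2 at 9.43 ± 3.32 CPM. Of the 27 pairs of neighbours in this order, 6 had library values that did not overlap, among them Insig1 over Dhcr7, Srebf1 over Cyp51 and Scap over Insig2. The order within the other 21 pairs was not larger than the spread between the libraries.

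**Figure D1:**
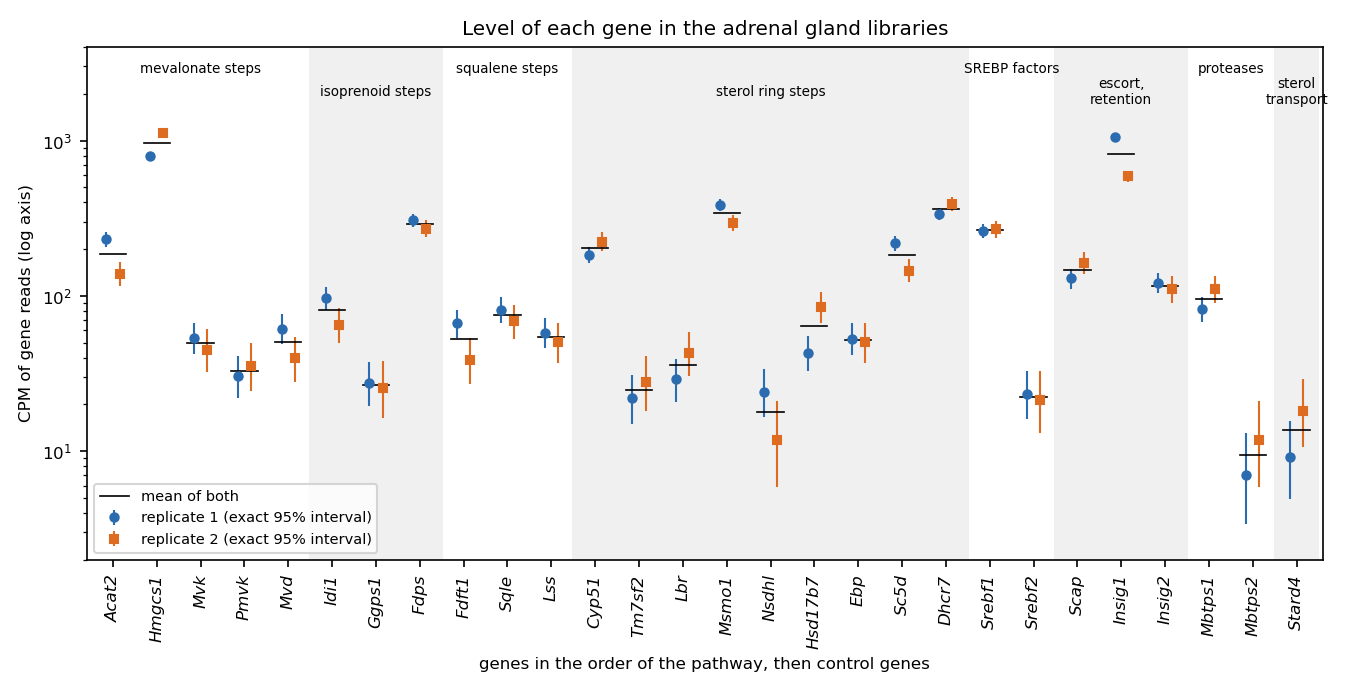
Level of each of the 28 genes in CPM of gene reads (vertical log axis) in replicate 1 (circles) and replicate 2 (squares), with exact 95% intervals as bars, the mean of both libraries as a black line and shading by role. Hmgcs1 and Insig1 stand above the rest at 958 and 820 CPM on average, and Mbtps2 is lowest at 9.43 CPM.

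The libraries were compared per gene by an exact two-sided binomial test given the gene's total, with TMM-scaled library sizes and Benjamini-Hochberg adjustment over the 11068 genes with at least 10 reads, and a gene passed at an adjusted p under 0.05. Of the 28 genes, 2 were higher in replicate 2, Hmgcs1 and Hsd17b7, where 6.2% of all genes tested passed in that direction. Another 6 were higher in replicate 1, namely Insig1, Acat2, Sc5d, Msmo1, Fdft1 and Idi1, where 6.21% of all genes passed, and 20 did not pass. Many of all genes tested are shallower than these. Of the 6491 genes with at least 50 reads, tested alone, 678 passed towards replicate 2 and 625 towards replicate 1. Of the 25 genes of the set among them, 2 and 6 passed. The median log2 ratio of replicate 2 over replicate 1 was -0.13 over the 28 genes and 0.00 over all genes tested. Set against the spread of all genes, a coefficient of variation of 21.5% taken from these same libraries, edgeR's exact test passed 0.244% of all genes and 0 of the 28, none of them at an unadjusted p under 0.05 either, while 11 of the 28 had an unadjusted p under 0.05 in the exact binomial test, as had 2561 of all genes tested (23.1%). Scaling by the ERCC spike-in RNAs shifted the median of all genes by -0.33 on the log2 scale and put 261 genes past the test towards replicate 2 and 2210 towards replicate 1, in place of 686 and 687. Under that scaling 0 of the 28 were higher in replicate 2 and 12 in replicate 1.

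**Figure D2:**
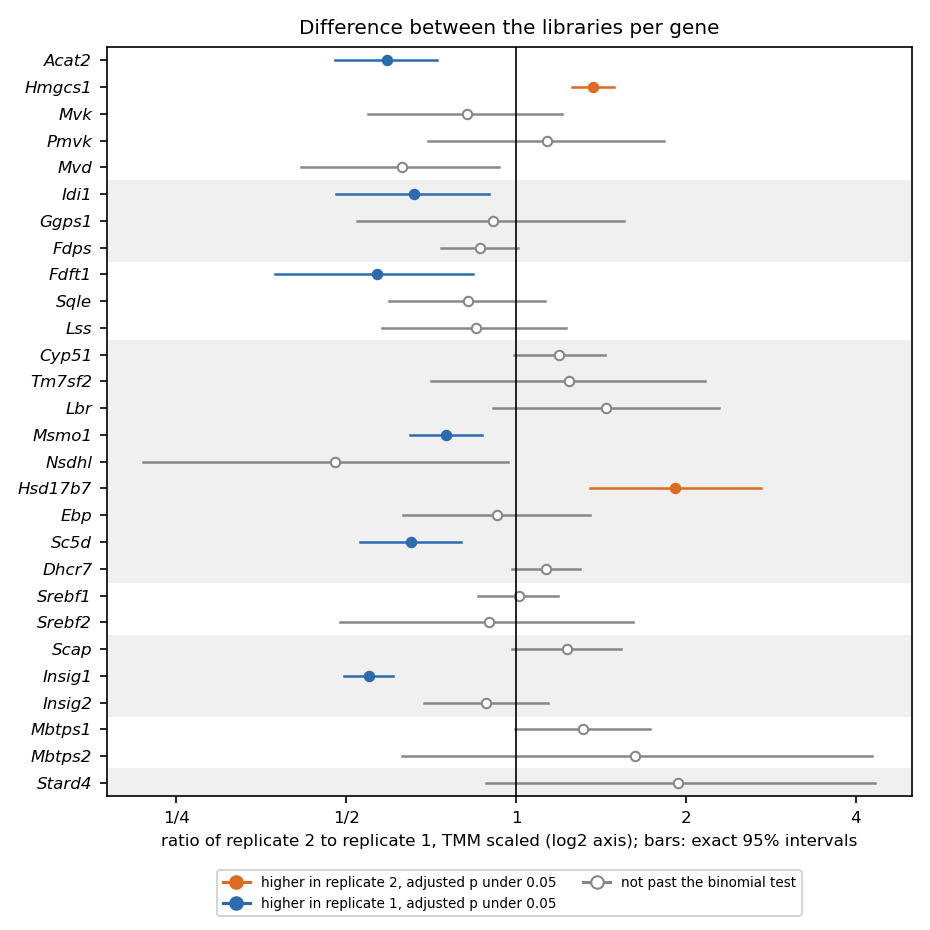
Ratio of replicate 2 to replicate 1 for each gene (horizontal log2 axis, TMM scaled) with exact 95% intervals, coloured where the exact binomial test passed. Insig1, Acat2, Sc5d, Msmo1, Fdft1 and Idi1 lie left of 1 and Hmgcs1 and Hsd17b7 right of it, and the 20 open points did not pass.

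Several marker lists of other cells held genes that passed the exact binomial test, as did 6.2% of all genes towards replicate 2 and 6.21% towards replicate 1. Only Acta1, Ckm and Atp2a1 of the skeletal muscle list passed edgeR's exact test. No gene of the other marker lists, cortex included, passed it, so their calls rest on counting error only. The adipocyte list, 7 of 7 genes read, summed to 4266 CPM in replicate 1 and 2726 CPM in replicate 2. In it 4 genes were higher in replicate 1, Adipoq, Plin1, Cidec and Ucp1, the last at 1687 and 602 CPM. The other 3 did not pass and were nearly level, Fabp4 at 488 and 483 CPM, Cidea at 637 and 637, and Lipe at 156 and 161. The 5 skeletal muscle genes summed to 716 and 2.14 CPM, and all 4 of them with enough reads were higher in replicate 1, with Acta1, Ckm and Tnnt3 at 0 reads in replicate 2. Of the 5 medulla markers, 4 were higher in replicate 1, and of the 5 erythroid markers 2. The macrophage list went the other way, at 338 and 418 CPM, with 2 of 5 genes higher in replicate 2. Within the cortex list, Star and Nr5a1 were 1.47-fold and 1.52-fold higher in replicate 2, and Cyp11b1 was 1.54-fold higher in replicate 1. The ratio also differed between bands of transcript length, without a steady trend. Up to 1000 nt the median log2 ratio of 639 genes was 0.21, and no gene of the set lies there. Among 1764 genes with at least 50 reads and a main transcript over 2000 and up to 3000 nt, the median log2 ratio was -0.15. In this band 85 genes passed towards replicate 2 and 245 towards replicate 1. It holds 7 genes of the set, of which 4 were higher in replicate 1 (Acat2, Msmo1, Fdft1 and Insig1). Over 1000 and up to 2000 nt, 95 of 1759 genes passed towards replicate 2 and 201 towards replicate 1, and 0 of 7 genes of the set passed. Over 4000 nt the median of 1099 genes was 0.18. The part of these differences in the results below was not tested. In a bulk tissue, fewer cells of a type and less RNA per cell cannot be told apart.

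**Figure D3:**
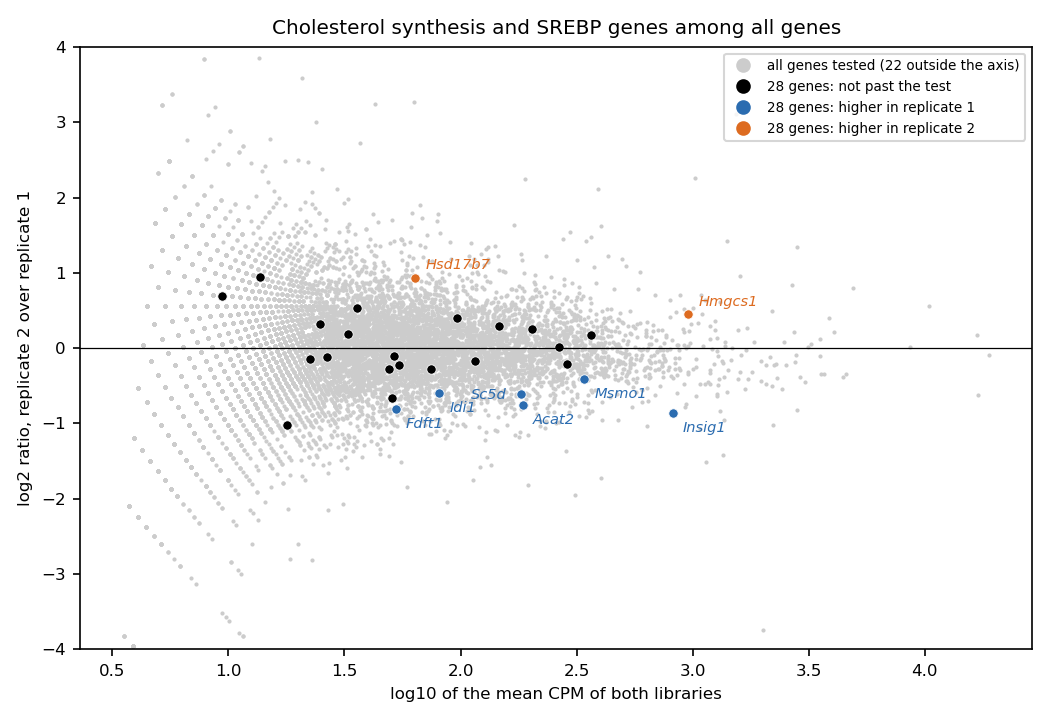
Log2 ratio of replicate 2 over replicate 1 (vertical axis) against the log10 of the mean CPM (horizontal axis) for all genes tested in grey and the 28 genes in black or, where the exact binomial test passed, in colour with their names. The genes of the set lie within the cloud of all genes, and 22 grey points fall outside the axis.

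The mevalonate steps were uneven in level and in direction. Acat2 (chr17:12942890-12960747, minus strand, mm10 as all positions here), which joins acetyl-CoA units at the start of the pathway, had 326 reads in replicate 1 and 130 in replicate 2, or 231 and 139 CPM, on a main transcript of 2250 nt. It was 1.70-fold higher in replicate 1 (interval 1.38 to 2.09, exact binomial test, adjusted p = 6.7e-06). Hmgcs1 (chr13:119690379-119708260, plus strand), at the next step, had 1128 and 1044 reads, or 798 and 1118 CPM, on a main transcript of 3245 nt. It was 1.37-fold higher in replicate 2 (interval 1.26 to 1.49, exact binomial test, adjusted p = 2.8e-11). Under spike-in scaling its log2 ratio was 0.13 and the adjusted p of the exact binomial test 0.139. The other 3 genes of this stretch, the mevalonate and phosphomevalonate kinases Mvk and Pmvk and the decarboxylase Mvd, stood between 30.4 and 61.6 CPM in both libraries. Mvk (1660 nt) had 76 and 42 reads, Pmvk (1194 nt) 43 and 33, and Mvd (1756 nt) 87 and 37, and none of them passed. Mvd, at 1.59-fold higher in replicate 1 (interval 1.07 to 2.40), had an adjusted p of 0.105 in the exact binomial test. No model of Acat3, a close relative of Acat2, was listed in either table.

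The isoprenoid steps were read mostly from Fdps. Fdps (chr3:89093588-89101959, minus strand), the farnesyl diphosphate synthase at the branch to sterols, dolichol and protein prenylation, had 434 and 253 reads, or 307 and 271 CPM, on a transcript of 1237 nt, and did not pass (1.16-fold, interval 0.991 to 1.36). Idi1 (chr13:8885501-8892451, plus strand), the isopentenyl diphosphate isomerase, had 137 and 61 reads, or 97.0 and 65.3 CPM on 3027 nt. It was 1.52-fold higher in replicate 1 (interval 1.11 to 2.09, exact binomial test, adjusted p = 0.0479). That call sat at the threshold and was lost under 8 of 10 alternatives. Ggps1, which makes geranylgeranyl diphosphate, had 39 and 24 reads, 27.6 and 25.7 CPM, with a main transcript of 4244 nt. The muscle-type paralog Idi2 had no listed model.

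Of the squalene steps, Fdft1 (chr14:63145150-63179578, minus strand), the squalene synthase that commits farnesyl units to sterols, had 94 and 36 reads, or 66.5 and 38.5 CPM, on a transcript of 2860 nt. It was 1.77-fold higher in replicate 1 (interval 1.19 to 2.67, exact binomial test, adjusted p = 0.0298). Exons of Ctsb on the other strand overlap Fdft1 and held 3331 and 1545 reads, but 78 and 24 of the Fdft1 reads follow the 8-exon chain of Fdft1-201. The squalene epoxidase gene Sqle, a rate-controlling step, had 115 and 64 reads (81.4 and 68.5 CPM on 2758 nt), and the lanosterol synthase gene Lss had 82 and 47 (58.0 and 50.3 CPM on 4667 nt). Neither passed, with intervals of 0.887 to 1.68 and 0.814 to 1.73 around folds of 1.21 and 1.18 towards replicate 1.

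The 9 genes that turn lanosterol into cholesterol spanned a wide range of levels. Dhcr7 (chr7:143823145-143848410, plus strand), whose product takes the last step of one route, had 478 and 365 reads, or 338 and 391 CPM on 2346 nt. Cyp51, the lanosterol demethylase, had 259 and 209 reads, or 183 and 224 CPM on 3931 nt, and neither of these genes passed. Msmo1 (chr8:64718139-64733792, minus strand), the C4 methylsterol oxidase, had 545 and 277 reads, or 386 and 297 CPM on 2044 nt. It was 1.33-fold higher in replicate 1 (interval 1.15 to 1.54, exact binomial test, adjusted p = 0.00197). Sc5d (chr9:42251595-42264256, minus strand), the lathosterol desaturase, had 309 and 136 reads, or 219 and 146 CPM on 4787 nt. It was 1.54-fold higher in replicate 1 (interval 1.25 to 1.89, exact binomial test, adjusted p = 0.000576). Going the other way was Hsd17b7 (chr1:169949535-169969241, minus strand), the 3-ketosteroid reductase of the C4 demethylation complex, which had 61 and 79 reads, or 43.2 and 84.6 CPM on 4612 nt. It was 1.92-fold higher in replicate 2 (interval 1.35 to 2.72, exact binomial test, adjusted p = 0.00246), and under spike-in scaling the adjusted p was 0.0592. Its reads on annotated coding transcripts were 26 and 46, and 31 and 26 were single-exon reads, or 50.8% and 32.9% of the gene.

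The partners of these enzymes were low. Nsdhl, the other dehydrogenase of the C4 demethylation complex, had 34 and 11 reads, or 24.1 and 11.8 CPM on 2168 nt, and with a fold of 2.09 towards replicate 1 (interval 1.03 to 4.57) its adjusted p was 0.165 in the exact binomial test. Ebp, the sterol isomerase, had 75 and 47 reads, nearly the same level in both libraries at 53.1 and 50.3 CPM on 1743 nt. The C14 sterol reductase is encoded by both Tm7sf2 and Lbr. Tm7sf2 had 31 and 26 reads, or 21.9 and 27.8 CPM on 1471 nt, and Lbr, which is also a nuclear envelope protein, had 41 and 40 reads, or 29.0 and 42.8 CPM on 3510 nt. The exons of Tm7sf2 overlap those of Vps51 on the same strand, whose overlapping models held 141 and 91 reads, so how reads divide between the pair is uncertain.

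Of the SREBP factor genes, Srebf1 was read far more often than Srebf2. Srebf1 (chr11:60199089-60222581, minus strand) had 369 and 252 reads, or 261 and 270 CPM, on a main transcript of 4299 nt, and Srebf2 (chr15:82147181-82205379, plus strand) had 33 and 20 reads, or 23.4 and 21.4 CPM, with single-exon reads in place of a spliced chain as its most-read form. The library values of the pair did not overlap. Neither gene passed the test, with folds of 1.01 (interval 0.857 to 1.19) and 1.12 (interval 0.621 to 2.05). On annotated transcripts alone, Srebf1 had a log2 ratio of 0.70 towards replicate 2 and an adjusted p of 0.00943 in the exact binomial test. With spike-in scaling of all its reads it passed the other way, at a log2 ratio of -0.31 and an adjusted p of 0.0382 in the same exact test. Only 3 and 4 of the Srebf2 reads were on an annotated coding transcript, 8 and 1 on other annotated transcripts, 9 and 11 lacked a 5′ part, and 9 and 4 were single-exon reads. Few of the Srebf2 molecules read thus matched an annotated coding transcript in full.

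Srebf1 makes the SREBP-1a and SREBP-1c proteins from alternative first exons that are spliced to the same second exon, and the longer acidic start of SREBP-1a makes it the stronger activator. The coding parts of both exons are shown because the reads tell the forms apart there (GENCODE M21, GRCm38, minus strand, start codon in capitals). The upstream exon, of the SREBP-1a type, codes at chr11:60220453-60220543 with 91 bases. The downstream exon, of the SREBP-1c type, codes at chr11:60210336-60210354 with 19 bases.
Srebf1 upstream exon: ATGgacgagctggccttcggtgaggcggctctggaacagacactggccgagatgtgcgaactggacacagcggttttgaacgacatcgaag
Srebf1 downstream exon: ATGgattgcacatttgaag

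The upstream exon was spliced to the second exon in 122 reads of replicate 1 and 123 of replicate 2, and the downstream exon in 85 and 56. Of reads in either exon, the upstream exon held 58.9% (interval 51.9 to 65.7%) and 68.7% (interval 61.4 to 75.4%), a mean of 63.8 ± 6.91% (SD, n = 2), and the intervals overlap. A further 65 and 35 reads had a first intron that starts in the second exon and cannot be given to either form. The 5′ part is the part that incomplete cDNA lacks, so these shares are those of the reads that reach it. The main chain, Srebf1-201 with the upstream exon, held 92 of 369 reads and 95 of 252, or 24.9% and 37.7%. Its share differed between the libraries (two-sided Fisher's exact test over 6413 genes that had 20 reads or more in both libraries, adjusted p = 0.038). Without genomic and incomplete models the shares were 39.0% and 48.5% and the call was lost, at an adjusted p of 0.621 in the same exact test. The matching chain with the downstream exon, of 19 exons, had 63 and 39 reads, or 17.1% and 15.5%. It counted as a new combination because the annotated transcript with that exon, Srebf1-207, stops short of the last intron, chr11:60200152-60200425.

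Srebf1 also used a pair of donor sites at the end of exon 4, and the stretch between them is shown because its 15 bases keep the reading frame and add 5 codons. It lies at chr11:60206173-60206187, in capitals here after the last 15 bases of the short form.
Srebf1 exon 4 end: ggcacagccgtgcagGCAGGTCCCCTGCAG
Of reads spliced after exon 4 from either donor site, the long form held 258 of 301 in replicate 1, or 85.7% (interval 81.2 to 89.5%). It held 184 of 217 such reads in replicate 2, or 84.8% (interval 79.3 to 89.3%). With the upstream first exon it held 84.3% and 86.6% of reads, and with the downstream first exon 81.2% and 82.1%. These differences between first exons lay within the exact intervals, so no link between first exon and donor site was detectable at this depth. The remaining pairings were read too, the upstream exon with the short form in 19 and 16 reads and the downstream exon with the short form in 16 and 10.

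The genes of SREBP escort and retention held the difference with the smallest p-value of the set. Insig1 (chr5:28071363-28078662, plus strand), which keeps Scap in the endoplasmic reticulum, had 1484 reads in replicate 1 and 550 in replicate 2, or 1050 and 589 CPM, on a main transcript of 2697 nt. It was 1.82-fold higher in replicate 1 (interval 1.65 to 2.02, exact binomial test, adjusted p = 1.9e-33). Scap, Insig1 and Insig2 together held 0.130% and 0.0862% of gene reads. Insig2, its relative with the same role, had 172 and 103 reads, or 122 and 110 CPM on 2697 nt, and did not pass (1.13-fold, interval 0.879 to 1.46). Insig1 thus stood above Insig2 in both libraries. Scap, the escort itself, had 183 and 152 reads, or 130 and 163 CPM on 4227 nt, and did not pass (1.23-fold, interval 0.984 to 1.53).

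The proteases differed in level. Mbtps1, the site-1 protease, had 116 and 103 reads, or 82.1 and 110 CPM on 4195 nt, and Mbtps2, the site-2 protease, had 10 and 11 reads, or 7.08 and 11.8 CPM on 4797 nt. Neither passed over all transcript models. On annotated transcripts alone, Mbtps1 had a log2 ratio of 1.05 towards replicate 2 and an adjusted p of 0.0217 in the exact binomial test. Stard4, which moves cholesterol between membranes, had 13 and 17 reads, or 9.20 and 18.2 CPM on 5097 nt, and at 1.93-fold towards replicate 2 its interval ran from 0.885 to 4.33. At this depth the interval of Mbtps2, around 1.63-fold towards replicate 2, ran from 0.627 to 4.27.

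The main chain of introns was an annotated transcript in 26 of the 28 genes, and 12 genes had more than 80% of their reads on it in both libraries. Msmo1-201 held 95.8% and 95.3% of its gene's reads, Insig1-201 95.1% and 95.5%, Sqle-201 94.8% and 93.8%, and Cyp51-201 91.9% and 88.0%. Over the 25 genes with enough reads the median main share was 80.9% in replicate 1 and 68.1% in replicate 2, and over all 6413 genes tested it was 74.6% and 70.7%. These medians were taken in each library separately and do not measure a change per gene. Sc5d, the median gene of replicate 1, had 80.9% and 84.6%, and Lss, the median gene of replicate 2, had 69.5% and 68.1%. Fisher's exact test passed 2 of the 25, Dhcr7 and Srebf1, where 2.21% of all genes passed. Nsdhl, Mbtps2 and Stard4 were too shallow for it.

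Dhcr7 was read without any of its annotated transcripts in full. Its main chain of 8 exons, with 245 of 478 reads and 139 of 365, begins at chr7:143830234-143830265 and holds every coding intron, and was classed as lacking the 5′ part of Dhcr7-201. The first exon of Dhcr7-201, chr7:143823167-143823540, was spliced to its next exon in 0 of 267 reads with an annotated first intron in replicate 1 and 0 of 159 in replicate 2, which allows up to 1.12% and 1.89%. By contrast, the short exon at 143830234 fed 247 and 145 of those reads, 92.5% and 91.2%, and another 15 and 12 went through an extra exon starting at 143833768. A RefSeq start lies nearby, at 143830214, and its window holds CCAAT at -85 and -49. The main share was 51.3% in replicate 1 and 38.1% in replicate 2 (two-sided Fisher's exact test, adjusted p = 0.0142), and single-exon reads were 20.5% and 27.4%. Among spliced reads alone the shares were 64.5% and 52.5%, with an adjusted p of 0.116 in the same exact test, so the call was lost.

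**Figure D4:**
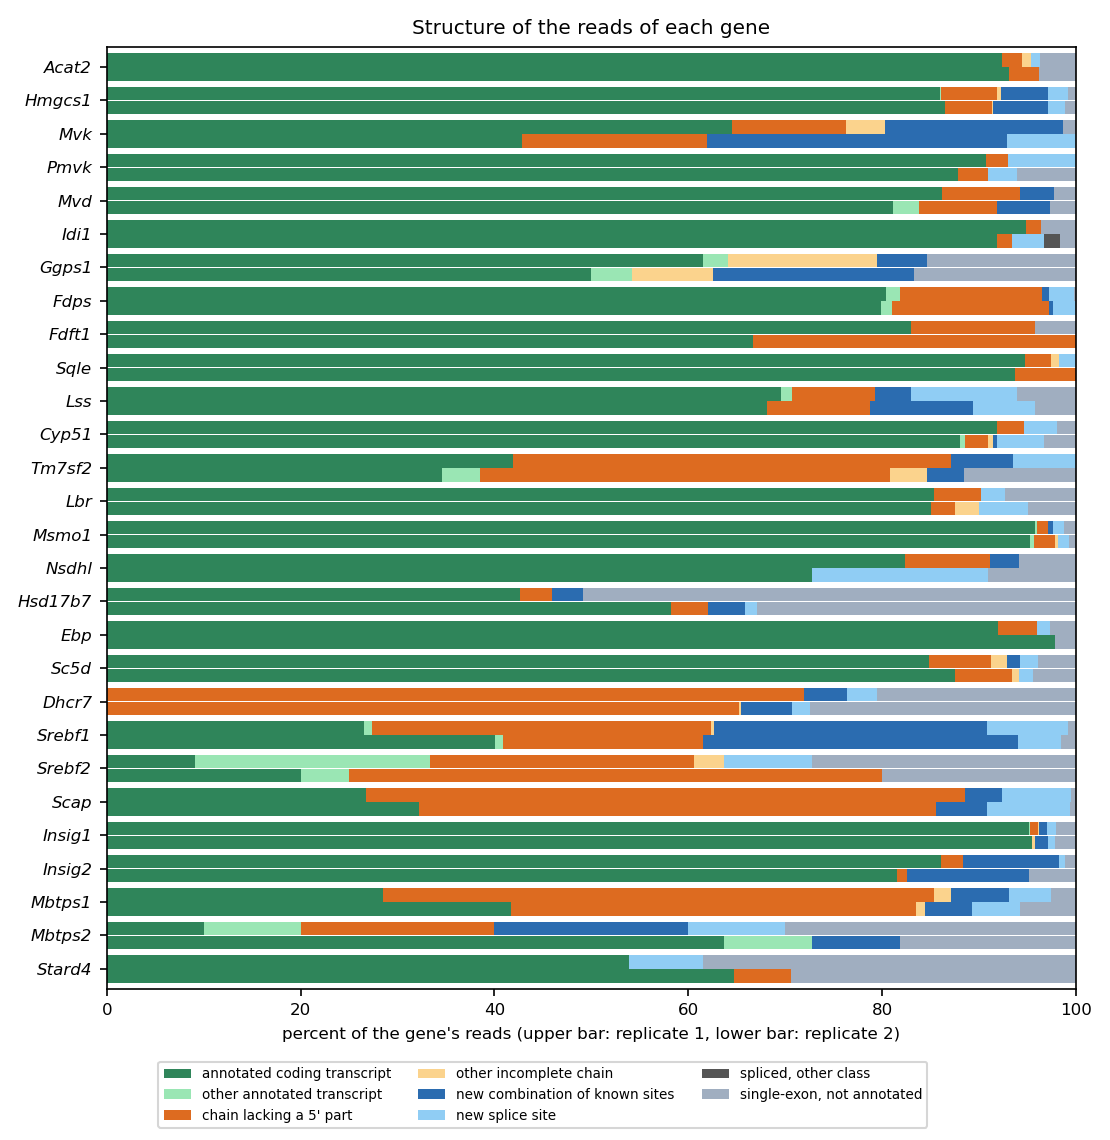
Percent of each gene's reads by structure, with replicate 1 as the upper and replicate 2 as the lower bar of each pair. Dhcr7 has no annotated transcript in full, Scap and Mbtps1 have 41.7 to 61.7% of reads on chains lacking a 5′ part, and Hsd17b7 has 50.8% and 32.9% of single-exon reads.

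Chains lacking a 5′ part made up 13.5% of the reads of the set in replicate 1 and 14.2% in replicate 2, against 8.10% and 8.69% over all annotated genes. Scap, with 23 exons, had 61.7% and 53.3%, and Mbtps1, also with 23 exons, had 56.9% and 41.7%. Tm7sf2 had 45.2% and 42.3% and Srebf1 35.0% and 20.6%, while the 5-exon gene Insig1 had 0.876% and 0%. Without the reads of Dhcr7, whose class rests on the annotated exon described above, the number of such reads falls from 914 to 570 in replicate 1 (9.05%) and from 591 to 353 in replicate 2 (9.28%).

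First exons and leader exons were shared out in nearly the same way in both libraries for most genes. Of Hmgcs1 reads with an annotated first intron, 57.1% and 56.4% ran straight to the exon at 119699664, which holds the start codon, 38.5% and 38.0% passed through an extra leader exon at 119694989, and 4.44% and 5.69% used a longer form of that exon starting at 119694890. This longer form was read with the rest of the gene in 46 and 54 reads as a chain outside the annotation. For Fdps the shares of its 3 main first introns were 75.9% and 73.7%, 15.2% and 17.9%, and 8.12% and 7.14%. Mvk ran straight to its second exon in 76.1% (interval 64.1 to 85.7%) and 57.6% (interval 39.2 to 74.5%) of reads and through an extra exon in 22.4% and 42.4%, and the intervals overlap. Its extra exon, chr5:114444652-114444689, joined to the full coding chain, gave 13 and 12 reads outside the annotation. Ggps1 had 79.3% and 78.9% on its main first intron, from 29 and 19 reads. Insig2, a gene with several annotated first exons, spliced from the exon end at 121327691 to 121319972 in 154 of 154 and 86 of 88 reads with an annotated first intron. These totals leave out 12 and 8 reads spliced from the same exon end to 121319905, which is not among the annotated first introns counted.

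**Figure D5:**
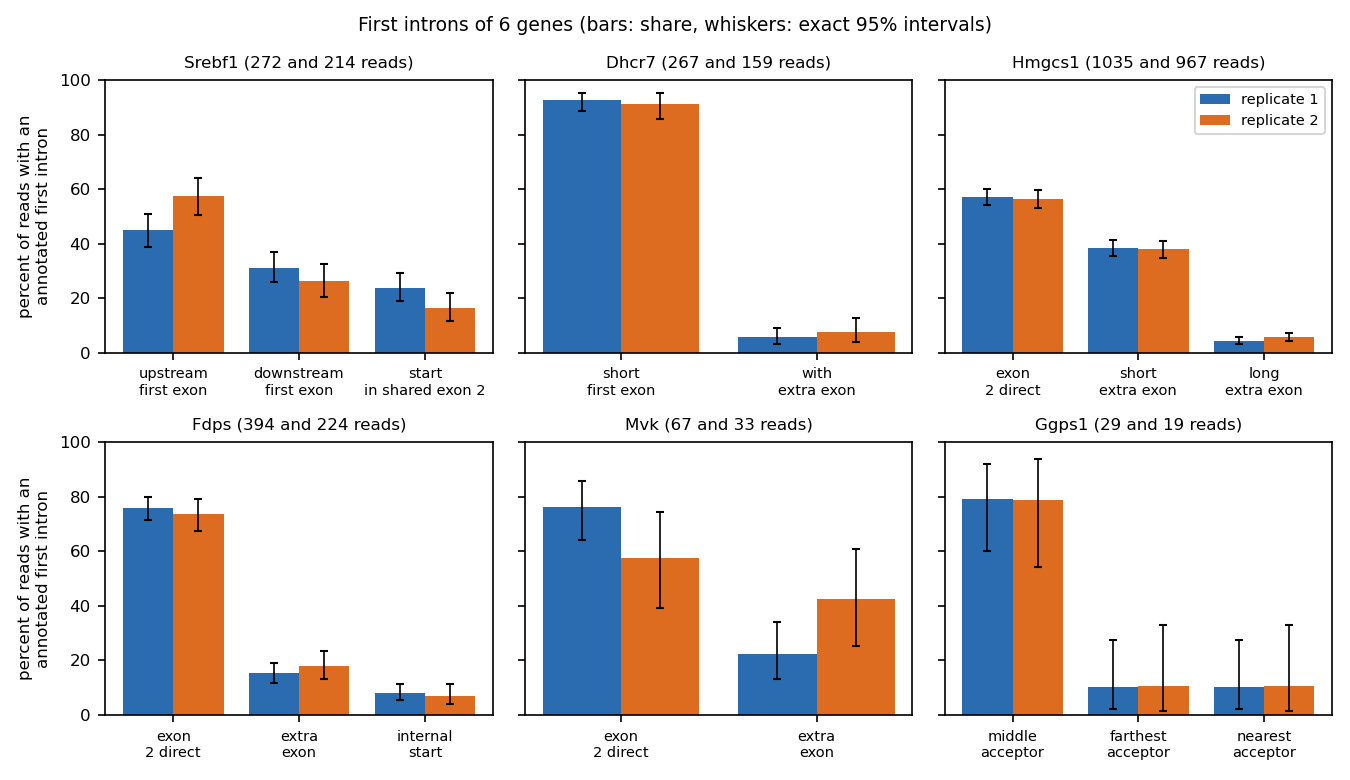
Percent of reads with an annotated first intron by first intron for 6 genes, with replicate 1 and replicate 2 side by side and exact 95% intervals as whiskers. Hmgcs1, Fdps and Dhcr7 have nearly the same shares in both libraries, and the Srebf1 upstream exon holds 44.9% and 57.5% of all such reads, those starting in the second exon included.

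In all, 14 spliced chains outside the annotation with at least 5 reads in a library were found in 9 genes, and all 14 were read in both libraries. The most abundant were the Srebf1 downstream chain and the Hmgcs1 chain above. Insig2 had a form with a shorter second exon, beginning at 121319905, in 12 and 8 reads, Dhcr7 a 9-exon form in 15 and 12, Insig1 a form that keeps the intron chr5:28074649-28075061 in 9 and 6, and Cyp51 a form with an added intron, chr5:4081193-4081356, in 5 and 4.

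Other genes of sterol synthesis and control, taken from a list and not for how they differed, were read alongside. Of 21 measured, 1 was higher in replicate 2, 2 were higher in replicate 1 and 18 did not pass, and their median log2 ratio was -0.07. Over all genes tested, 6.2% passed towards replicate 2 and 6.21% towards replicate 1. No gene of this list or of the lists below passed edgeR's exact test, so the calls below rest on counting error only. Aacs, which makes acetoacetyl-CoA from ketone bodies, had 644 and 240 reads and was 1.81-fold higher in replicate 1 (exact binomial test, adjusted p = 3.4e-14). Vcp, an ATPase that pulls ubiquitinated proteins out of the endoplasmic reticulum membrane, had 2019 and 1186 reads and was 1.15-fold higher in replicate 1 (exact binomial test, adjusted p = 0.00216). Of the other abundant genes of the list, Pgrmc1 and Cyb5b stood at 914 and 445 CPM on average and did not pass.

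Of 13 genes that use isoprenoids, 1 was higher in each direction and 11 did not pass. The shares of all genes tested that passed were 6.2% towards replicate 2 and 6.21% towards replicate 1. Fnta, a subunit of the farnesyltransferase, had 319 and 156 reads, 1.38-fold higher in replicate 1 (exact binomial test, adjusted p = 0.0111). Pggt1b, a subunit of the enzyme that adds geranylgeranyl groups to proteins, had 29 and 39 reads, 1.99-fold higher in replicate 2 (exact binomial test, adjusted p = 0.0493). That call sat at the threshold. Coq2, of ubiquinone synthesis, led the list at 206 CPM on average, with Zmpste24 and Nus1 at 67.0 and 61.8 CPM.

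Of 12 measured SREBP targets outside sterol synthesis, 4 were higher in replicate 2, 0 were higher in replicate 1 and 8 did not pass, with a median log2 ratio of 0.21. Over all genes tested, 6.2% and 6.21% passed in these directions. Of the 6491 genes with at least 50 reads, tested alone, 678 and 625 did. None of these targets passed edgeR's exact test. Acly, which supplies acetyl-CoA, had 5015 and 5876 reads and Fasn, the fatty acid synthase, 594 and 692. They were 1.73-fold and 1.72-fold higher in replicate 2 (exact binomial test, adjusted p = 3.9e-177 and 3.8e-20). Fads2, at 4715 and 3469 reads, was 1.09-fold higher there, and Me1, at 1274 CPM on average, did not pass. Under spike-in scaling the log2 ratio of every gene is lower by 0.33. Of the 4 measured genes of LXR, the sterol-sensing receptor, and its targets, the efflux transporter gene Abca1 passed, with 10 and 26 reads and a 3.85-fold higher level in replicate 2 (exact binomial test, adjusted p = 0.00234), while Nr1h2, Nr1h3 and Mylip did not.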

How the data were processed

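Per the labels, both libraries are long-read RNA-seq of adrenal gland, and the text deposited with the files names mm10 and GENCODE M21. The deposited tables hold counts, the number of long reads the authors assigned to each transcript model, without normalization, and list models with at least 1 read. The aligner, versions and read filters are not given in the sources used here. Counts were summed per annotated gene, with 18340 and 15552 spike-in reads and the reads of new gene models (3.22% and 5.85% of mouse reads) left out. Isoforms were matched by intron chain, and unannotated single-exon models of a gene counted as 1 isoform.

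Exact binomial and Fisher's exact tests used scipy 1.17.1, and TMM factors (0.989 and 1.01) and the exact test at the common dispersion edgeR 4.0.16, and 0.5 counts were added before log2 ratios. The exact binomial and Fisher's exact tests were tried on simulated data with counting error only. Such data cannot show how the calls hold at the spread between these libraries. With 1 group, edgeR's quasi-likelihood test has no contrast. Promoter windows are RefSeq's and exon coordinates GENCODE M21's. Protein sequences were not used here. Figures were drawn with matplotlib 3.10.9.

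All 28 members are named, plus from each other list the up to 4 most abundant genes and those past the test, and paralogs or overlapping genes. Some genes of these other lists are counted but not reported here. The members and lists were chosen with earlier results of these data known. Alternatives covered scaling (DESeq2 1.42.0 size factors, totals, spike-ins), models, read minimums, thinning (seed 20211) and leaving out each library, and doubling the smaller binomial tail was added after seeing the data.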

Additional observations from a re-analysis of the deposited data

Results flagged for a closer look

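Single-exon models of genes new to the annotation lie opposite to exons of Dhcr7 and of Ggps1, outside the gene counts compared above. Opposite to Dhcr7 they held 30 reads in replicate 1 and 59 in replicate 2, nearly all of them over its last exon (143847887 to 143848308 in replicate 1, 143848044 to 143848409 in replicate 2). Opposite to Ggps1 they held 6 and 5 reads. Both counts are above the 3 reads that a count of 0 allows in each library, and there is no control sample. Their part in the counts of Dhcr7 and Ggps1 was not tested.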

How the results depend on the processing

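No paired analysis was possible because the series has 1 group, so no 2 groups share replicate numbers. Of the 28 genes, 2 were higher in replicate 2 and 6 in replicate 1. With known transcripts only these counts were 4 and 5, with spike-in scaling 0 and 12, and with edgeR's exact test 0 and 0, and under the other 7 alternatives 2 to 3 and 5 to 6. Idi1 was the call lost most often, with an adjusted p of 0.0548 to 0.117 in the exact binomial test where it was lost. Members past the isoform test were 1 with spliced reads only and 0 without genomic and incomplete models, where the Dhcr7 main chain is a different one and its share 4.49 points higher in replicate 2, and 2 with other read minimums. Reversed log2 ratios, of genes that had not passed before, were, with spike-in scaling, Pmvk -0.14, Cyp51 -0.0709, Tm7sf2 -0.0115, Dhcr7 -0.15, Srebf1 -0.31, which passed, and Scap -0.0291. With replicate 1 thinned they were Pmvk -0.0299 and Srebf2 0.0423, with no read minimum Srebf1 -0.0165, with known transcripts only Ebp 0.0911, and without genomic and incomplete models Ggps1 0.0555 and Ebp 0.0270. The cause was not tested. The share of gene reads on the 28 genes was 0.446 to 0.479% when either library was left out, 0.458% with known transcripts only and 0.442% of all mouse reads. Depth limits most the 3 genes with under 50 reads over both libraries, Nsdhl, Mbtps2 and Stard4.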
